A study of Mus musculus with 119 samples.

Results

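Resting macrophages that lack the ternary complex factors ELK1 and ELK4 were compared with resting wild-type (WT) macrophages. The comparison used 10 of the 119 RNA sequencing libraries in the series, 4 from unstimulated Elk1-/-Elk4-/- cells (replicates 1 to 4, here called dKO) and 6 from unstimulated WT cells (replicates 4 to 9), all chosen by their labels. The cells were bone marrow-derived macrophages (BMDMs), grown from mouse marrow for 7 days in medium conditioned by L cells, a source of the growth factor CSF1, kept overnight in 1% serum and then given no agonist. Both genotypes were on the C57BL/6(NIMR) background, and what the 2 groups shared was the culture and the absence of lipopolysaccharide (LPS). The series as a whole follows the response of such cells to 100 ng/ml LPS for 0.5, 1 or 2 h, and also holds Map3k8[D270A] cells with a catalytically inactive TPL-2 kinase, Nfkb1[SS/AA] cells and cells given kinase inhibitors.

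ELK1, ELK4 and ELK3 are ETS-family proteins that bind DNA together with serum response factor (SRF), a factor that recognises the CArG box. They are phosphorylated by ERK and other MAP kinases, and are known for the rapid, transient induction of immediate early genes such as *Fos* and *Egr1*. The cofactors of the MRTF family compete for SRF and drive cytoskeletal genes. The comparison of unstimulated cells asks how the groups differ before an agonist is given.

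The deposited values are normalised and on a log scale whose base was taken to be 2 from the values. A difference of 1 then stands for 2-fold, if that base holds and the scale was not shrunken. A gene was called changed when its difference was at least 1 in size and its adjusted p (limma, Benjamini-Hochberg over 11884 genes) was under 0.05. The WT libraries carry the label of one experiment and the dKO libraries that of another, so genotype and experiment cannot be told apart in this comparison. For that reason the genes with the largest differences and the main lists are also given with the same 4 dKO libraries set against 3 other resting groups, which are 6 unstimulated Map3k8[D270A] libraries from the experiment of the WT cells, 6 unstimulated Nfkb1[SS/AA] libraries and 3 WT libraries given only the solvent DMSO. Where 3 such values follow each other without names, they are in the order Map3k8[D270A], DMSO-treated WT and Nfkb1[SS/AA]. These comparisons share the dKO libraries. By their labels the Nfkb1[SS/AA] libraries come from a further experiment, and the DMSO libraries, given DMSO for 10 min, from another. For these groups too, group and experiment cannot be told apart. The libraries are biological replicates by the study's methods, but nothing in the labels says that each came from a separate mouse, so the p-values measure the spread between these libraries. In bulk RNA, fewer cells of a type and less RNA per cell cannot be told apart.

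The targeted genes were both low in every dKO library. *Elk1* (chrX:20933395-20950608) lay between 9.07 and 9.22 in WT with a median of 9.13, and read 6.22, 6.42, 6.59 and 6.22 in the dKO libraries. Its difference was -2.78 (SE 0.05, adjusted p = 1.36e-44). *Elk4* (chr1:132007577-132026448) ranged from 7.57 to 7.80 in WT with a median of 7.77, against 5.59, 5.88, 5.83 and 5.54 in dKO, a difference of -2.01 (SE 0.07, adjusted p = 3.51e-29). Against the 3 other resting groups *Elk1* differed by -2.73, -2.72 and -2.72, and *Elk4* by -2.02, -2.10 and -2.09. The genotypes were far apart for both genes, and the labels held in all 10 libraries.

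*Elk3*, the remaining ternary complex factor, stayed at WT level. It ranged from 10.32 to 10.45 in WT (median 10.39) and read 10.39, 10.41, 10.35 and 10.39 in dKO, so the groups overlapped (difference -0.00, SE 0.03, adjusted p = 0.925). *Srf* itself was slightly lower than in WT. Its WT values ran from 10.13 to 10.26 with a median of 10.17, and the dKO values were 10.03, 10.01, 10.04 and 9.92, all below the lowest WT library. The *Srf* difference of -0.19 (SE 0.05, adjusted p = 9.96e-04) was well short of 2-fold, and it was -0.06 both against DMSO-treated WT (adjusted p = 0.425) and against Nfkb1[SS/AA] cells (adjusted p = 0.296).

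**Figure D1:**
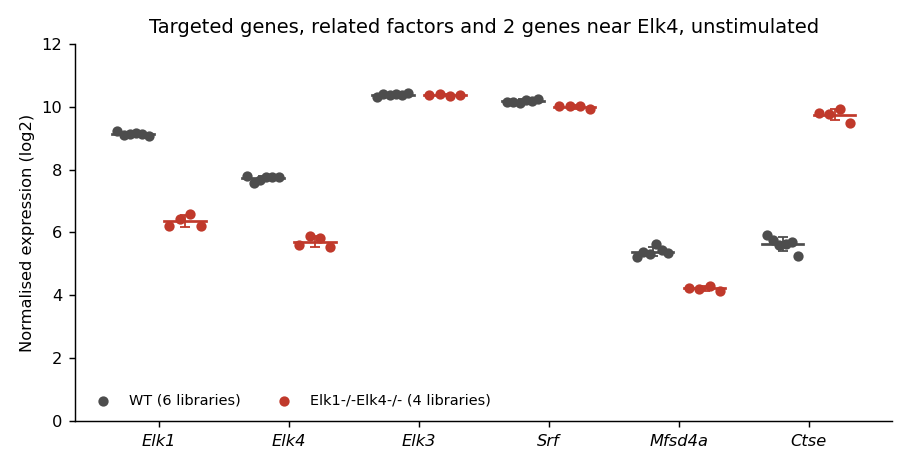
Deposited log2 values of *Elk1*, *Elk4*, *Elk3*, *Srf* and 2 genes near *Elk4* in the 6 WT and 4 dKO unstimulated libraries. Each dot is a library, the bar is the group mean and the error bar its SD. *Elk1*, *Elk4* and *Mfsd4a* are lower in every dKO library, *Ctse* is higher in every one, and *Elk3* overlaps between the groups.

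Across the transcriptome the genotypes differed in many genes by little and in few genes by much. There were 92 genes called higher in dKO (0.774% of those tested) and 55 called lower (0.463%), together 147 (1.24%). By adjusted p alone 6154 genes differed (51.8%), 3228 higher and 2926 lower, while the median absolute difference over all genes was 0.16. The 4 dKO and 6 WT libraries did not overlap for 4651 genes (39.1%), among them 140 of the called genes (1.18% of those tested). Libraries of the same genotype were closer to each other than to the other genotype. The root mean square difference between libraries had a median of 0.169 within dKO, 0.217 within WT and 0.362 between them. Of the 92 genes called higher, 7 passed the minimum for testing only through their level in dKO, and these had to differ.

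Against the other resting groups, the counts were 160 genes (1.35%) with Map3k8[D270A], 130 (1.09%) with DMSO-treated WT and 184 (1.54%) with Nfkb1[SS/AA] as the control. The genes called were the same only in part. Of the 92 called higher against WT, 81, 53 and 62 were called higher in these comparisons (0.816%, 0.769% and 0.994% of all genes), and 40 in all 3. Of the 55 called lower, 38, 25 and 28 were called lower (0.53%, 0.317% and 0.543% of all genes), and 15 in all 3. Map3k8[D270A] cells themselves differed from WT in 8 genes (0.0673%). With 3 of the WT libraries at a time as the control, 184 genes (1.55%) were called against replicates 4 to 6 and 145 (1.22%) against replicates 7 to 9. The first count held 103 higher and 81 lower, and the second 101 higher and 44 lower. WT replicates 7 to 9 differed from WT replicates 4 to 6 in 6 genes (0.0505%).

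**Figure D2:**
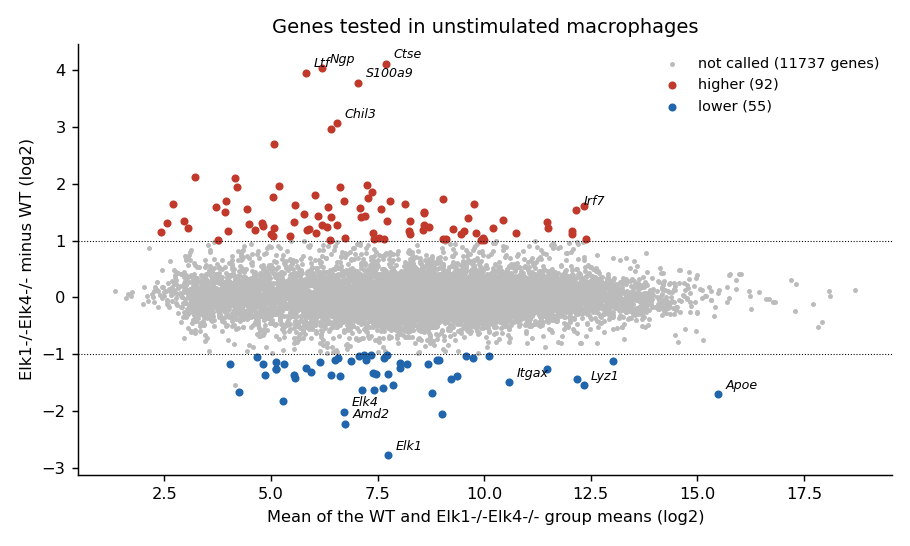
Difference between dKO and WT (vertical axis, log2) against the mean of the group means (horizontal axis, log2) for the 11884 genes tested. Coloured points are the 92 genes called higher and the 55 called lower, and dotted lines mark a difference of 1 in either direction.

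The largest rise of any gene was in *Ctse*, which encodes the aspartic protease cathepsin E. *Ctse* (chr1:131638314-131675507) ranged from 5.25 to 5.93 in WT with a median of 5.66, and read 9.80, 9.78, 9.94 and 9.50 in dKO, with no overlap. Its difference was 4.11 (SE 0.12, adjusted p = 3.77e-33), and it was 4.14, 4.18 and 3.84 with Map3k8[D270A], DMSO-treated WT and Nfkb1[SS/AA] cells as the control. After 0.5, 1 and 2 h of LPS, in other libraries, *Ctse* remained higher in dKO by 3.99, 4.09 and 4.08.

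*Ctse* lies 0.33 Mb from *Elk4*. Its neighbour *Mfsd4a* (chr1:132022806-132069658), a gene for a predicted membrane transporter whose interval overlaps the end of *Elk4*, fell. *Mfsd4a* ranged from 5.22 to 5.62 in WT (median 5.38) and read 4.22, 4.19, 4.31 and 4.15 in dKO, a difference of -1.17 (SE 0.08, adjusted p = 2.20e-16). With the other controls *Mfsd4a* was at -1.11, -1.30 and -1.25. Reads in the overlap of the 2 genes may have been shared between them. *Chil1* (chr1:134182156-134190031), a chitinase-like protein gene 2.16 Mb from *Elk4*, ran from 1.78 to 1.94 in WT (median 1.84) and read 3.20, 3.04, 3.09 and 2.66 in dKO, and it reached the minimum for testing only through dKO. Its difference of 1.15 was 0.94 after quantile normalisation and 0.75 against DMSO-treated WT, no longer called.

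Within 1 Mb of *Elk4*, 2 of 22 tested genes were called (9.09%, against 1.24% of all genes), and within 5 Mb 3 of 68 (4.41%). By adjusted p alone 16 of the 22 differed, against 51.8% of all genes. Among them were *Slc45a3* at 0.76, *Nucks1* at 0.61, *Fam72a* at 0.62 and *Rab7b* at -0.61. Around *Elk1* the picture was plainer. None of the 16 tested genes within 1 Mb and none of the 20 within 5 Mb was called, with 8 and 12 past the adjusted p alone. *Chst7* at -0.55 and *Timp1* at -0.53 were among those neighbours. Whether sequence around the targeted alleles has a part in these values was not tested.

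Genes induced by type I interferon were higher in dKO as a group, but how far depended on the control. Of 50 listed genes, all tested, 10 were called higher (0.774% of all genes) and 49 were higher by adjusted p alone (27.2% of all genes), with a median difference of 0.79 against 0.01 for all genes. The exception was *Oas2*, at 0.54 with an adjusted p of 0.105. All 50 had dKO libraries above every WT library, whereas 39.1% of all genes did not overlap in one direction or the other. The called members were *Iigp1*, *Ifi44*, *Ifit2*, *Irf7*, *Ifit3*, *Oas3*, *Zbp1*, *Ifit1*, *Oasl1* and *Oasl2*, with differences from 1.03 to 1.76. The list was chosen with earlier results of these data known.

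*Irf7* (chr7:141263183-141266499) encodes the transcription factor that amplifies interferon production. It ranged from 10.99 to 11.82 in WT with a median of 11.41, and read 13.10, 12.91, 13.22 and 12.50 in dKO (difference 1.54, SE 0.18, adjusted p = 1.10e-09). *Ifit2* (chr19:34550550-34576534), one of the IFIT genes whose products inhibit translation of viral RNA, ran from 11.20 to 11.91 in WT (median 11.55) and was 13.41, 12.96, 13.23 and 13.03 in dKO (difference 1.62, SE 0.19, adjusted p = 5.90e-10). For both genes the lowest dKO library was above the highest WT library.

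*Ifi44* (chr3:151730922-151749910) ranged from 6.86 to 7.62 in WT (median 7.45) and read 9.14, 8.81, 9.22 and 8.71 in dKO, a difference of 1.64 (SE 0.25, adjusted p = 1.88e-07). *Iigp1*, an immunity-related GTPase, lay between 5.92 and 6.63 in WT with a median of 6.49 and read 8.37, 7.96, 8.43 and 7.82 in dKO, a difference of 1.76 (SE 0.37, adjusted p = 9.73e-05). dKO replicates 1 and 3 were the highest for each of these 4 genes.

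With other controls the interferon-stimulated genes moved differently. Against Map3k8[D270A] cells 12 of the 50 were called higher (0.816% of all genes) and the median was 0.85. Against Nfkb1[SS/AA] cells 3 were called (0.994% of all genes) and 31 were higher by adjusted p alone (27.1%), with a median of 0.45. Against WT cells given DMSO only 1 was called (0.769% of all genes), 4 were higher by adjusted p alone (19.7%), and the median was 0.11 in a range from -0.40 to 1.46. *Ifi44* was the member called there, at 1.46 (adjusted p = 3.81e-04). In that same comparison *Irf7* differed by 0.99 (adjusted p = 0.0052), *Iigp1* by 1.03 (adjusted p = 0.0508) and *Ifit2* by 0.16.

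The levels behind those differences show where the groups stood. The mean log2 value over the 50 genes was 10.49, 10.46, 10.44, 10.33, 10.61 and 10.25 in WT replicates 4 to 9, and 11.41, 11.16, 11.31 and 11.16 in the dKO libraries. In the 3 DMSO-treated WT libraries it was 11.14, 11.08 and 11.13, close to dKO. Nfkb1[SS/AA] replicates 1 to 3 were at 10.43, 10.32 and 10.31, near the WT libraries, and replicates 4 to 6 at 11.29, 10.76 and 11.50. The 6 Map3k8[D270A] libraries went down to 10.20, so the other resting libraries, from 10.20 to 11.50, spanned the levels of both WT and dKO. The part of the experiment in this difference was not tested. In the LPS libraries, 12, 12 and 10 of the 50 were called higher in dKO at 0.5, 1 and 2 h, with 1.17%, 1.53% and 2.09% of all genes called in either direction.

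*Ifnb1*, the gene for interferon-β, was close to the minimum for testing in resting cells. It ranged from 4.44 to 4.74 in WT (median 4.61) and read 4.61, 5.05, 5.10 and 4.56 in dKO, overlapping, with a difference of 0.22 (adjusted p = 0.206). After 1 h of LPS the *Ifnb1* difference was 1.73, larger than in resting cells by 1.51 (SE 0.20, adjusted p = 8.71e-07 for the interaction).

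**Figure D3:**
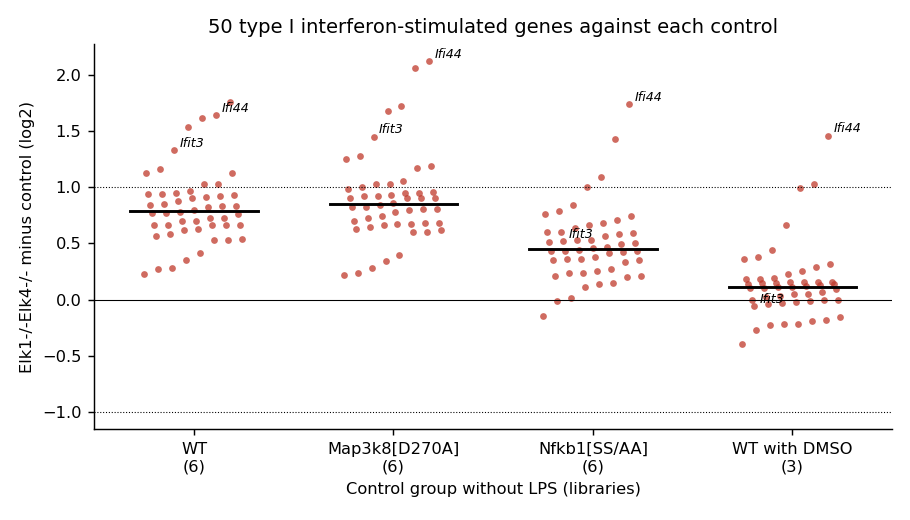
Difference between dKO and each of 4 resting control groups (log2) for the 50 interferon-stimulated genes. Each dot is a gene and the black bar the median, which is 0.79 against WT, 0.85 against Map3k8[D270A], 0.45 against Nfkb1[SS/AA] and 0.11 against WT given DMSO.

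Promoters of these genes are shown because the interferon-stimulated response element and the CArG box are the letters read by the factors named above. The sequences are RefSeq entries of the build GRCm38.p6, each covering the 120 bases from position -170 to -51 relative to the transcript start that the entry is built on, written on the gene's own strand. A gene can have several transcript starts, and that start need not be the outer edge of the gene's interval. Capitals mark matches to a core of the interferon response element, which is GAAA, any 2 bases and GAAA again, in *Ifit1* (chr19:34640719-34640838, plus strand), *Ifit3* (chr19:34583359-34583478, plus strand) and *Oas3* (chr5:120777710-120777829, minus strand).
Ifit1: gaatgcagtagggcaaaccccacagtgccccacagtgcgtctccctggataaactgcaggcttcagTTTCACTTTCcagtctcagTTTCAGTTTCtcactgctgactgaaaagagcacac
Ifit3: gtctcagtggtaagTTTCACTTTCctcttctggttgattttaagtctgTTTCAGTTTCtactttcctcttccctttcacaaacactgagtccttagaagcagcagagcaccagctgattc
Oas3: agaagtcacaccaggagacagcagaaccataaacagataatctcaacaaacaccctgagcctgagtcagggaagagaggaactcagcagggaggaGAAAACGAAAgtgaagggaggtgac
Both strands were searched over the whole RefSeq entry of each promoter, which also takes in the first 50 bases of the transcript, and a gene counted if any of its entries held a match. The motif was in 22 of the 36 listed interferon genes with an entry (61.1%) and in 374 of the 9526 tested genes with one (3.93%). The 22 genes with it had a median difference of 0.79 and those without it 0.87. It was in 10 of 65 genes called higher (15.4%), in 2 of 35 called lower (5.71%) and in none of the 13 neutrophil genes described next. A match is a description of the letters in this window and not a bound site.

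Among the 12 largest rises, 7 were in listed neutrophil markers, *Camp* included, which passed the minimum for testing only through dKO. Of 24 listed neutrophil markers 14 passed the minimum for testing, 5 of them only through their level in dKO, and 9 were called higher (0.774% of all genes). For the members that passed only through dKO a difference was built in, so the count of 9 is a description. *Ngp*, *Ltf*, *Camp* and *Lcn2* encode granule proteins, *S100a8* and *S100a9* the calcium-binding calprotectin pair, and *Chil3* a chitinase-like lectin made by neutrophils and by alternatively activated macrophages.

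*Ngp* (chr9:110419808-110423012) ranged from 3.75 to 4.70 in WT with a median of 4.10, and read 8.33, 8.17, 8.48 and 7.88 in dKO. The *Ngp* difference was 4.04 (SE 0.26, adjusted p = 1.13e-18). *Ltf* (chr9:111019292-111042766), the lactoferrin gene, ran from 3.53 to 4.33 (median 3.71) in WT and was 7.88, 7.66, 8.12 and 7.53 in dKO, a difference of 3.95 (SE 0.23, adjusted p = 1.95e-20). Both were lowest in dKO replicate 4 and still more than 3 log2 units above every WT library.

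*S100a9* (chr3:90692630-90695721) lay between 4.57 and 5.84 in WT (median 5.14) and at 8.99, 8.97, 9.12 and 8.69 in dKO, with a difference of 3.78 (SE 0.39, adjusted p = 1.81e-11). Its partner *S100a8* (chr3:90669071-90670034) ran from 4.62 to 5.25 (median 4.91) against 7.92, 8.02, 8.0 and 7.60, a difference of 2.97 (SE 0.21, adjusted p = 5.53e-17). *Chil3* (chr3:106147554-106167564) ran from 4.70 to 5.58 (median 4.98) against 8.21, 8.14, 8.16 and 7.86, a difference of 3.06 (SE 0.18, adjusted p = 3.14e-20). For these 3 genes the dKO libraries lay within 0.5 of each other and above all WT libraries.

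*Lcn2* (chr2:32384637-32387739) was at 3.42 to 3.97 in WT (median 3.75) and at 6.63, 6.29, 6.72 and 6.07 in dKO, a difference of 2.70 (SE 0.16, adjusted p = 1.40e-19). *Camp* (chr9:109847377-109849456), the cathelicidin gene, was at 2.05 to 2.34 in WT (median 2.16) and at 4.27, 4.32, 4.43 and 4.13 in dKO. *Camp* passed the minimum only through dKO, as did *Cd177* (difference 1.64) and *Retnlg* (difference 1.30).

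The 6 called members that passed the minimum in other libraries too were also past both thresholds against each of the other resting groups. *Ngp* differed by 4.27 from Map3k8[D270A], by 3.70 from Nfkb1[SS/AA] and by 2.63 from DMSO-treated WT, whose libraries were above the untreated WT ones at 5.15 to 5.92. *Ltf* was at 4.04, 2.39 and 3.72 with these controls, *S100a9* at 4.04, 2.43 and 3.41, and *S100a8* at 3.34, 2.13 and 2.54, in the order Map3k8[D270A], DMSO-treated WT and Nfkb1[SS/AA]. *Chil3* was at 2.85, 2.77 and 3.45 and *Lcn2* at 2.82, 1.92 and 2.18. Of the 5 tested markers that were not called, *Cxcr2*, a chemokine receptor, was at 2.64 to 2.96 in WT and 3.20 to 3.57 in dKO, and *Mcemp1* at 2.46 to 2.84 and 3.34 to 3.77, without overlap, and both passed the minimum only through dKO. The other 3 overlapped. *Csf3r*, the G-CSF receptor, ranged from 10.40 to 10.64 in WT and from 10.24 to 10.60 in dKO, *Mmp8* from 8.95 to 9.83 and 9.44 to 9.61, and *Mmp9* from 6.25 to 7.95 and 6.24 to 6.70. The remaining 10 markers were below the minimum for testing. In 5 of them, at the bottom of the scale, the dKO libraries lay above every WT library, *Ly6g* at -0.24 to -0.17 in WT and -0.13 to 0.40 in dKO, *Elane* at -0.15 to -0.08 and 0.17 to 0.63, *Prtn3* at 0.17 to 0.24 and 0.28 to 0.85, *Mpo* at 0.70 to 0.73 and 1.51 to 2.23, and *Fcnb* at 0.60 to 0.69 and 1.37 to 1.70. The other 5 overlapped, *Cebpe* at 2.54 to 3.07 in WT and 3.05 to 3.41 in dKO, and *Stfa1*, *Stfa2*, *BC100530* and *Stfa2l1* under 0 in both groups. The summed level of all 24 markers was 11.10 to 11.40 in WT, 11.76 to 12.08 in dKO and 11.31 to 11.43 in the DMSO-treated WT libraries. It was 11.18 to 11.52 in Map3k8[D270A] and 11.25 to 11.80 in Nfkb1[SS/AA] libraries, so the last of these groups overlapped dKO. *Csf3r* and *Mmp8*, for which WT and dKO overlapped, had the highest levels of the members summed. The part of neutrophils or their precursors in the difference was not tested.

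**Figure D4:**
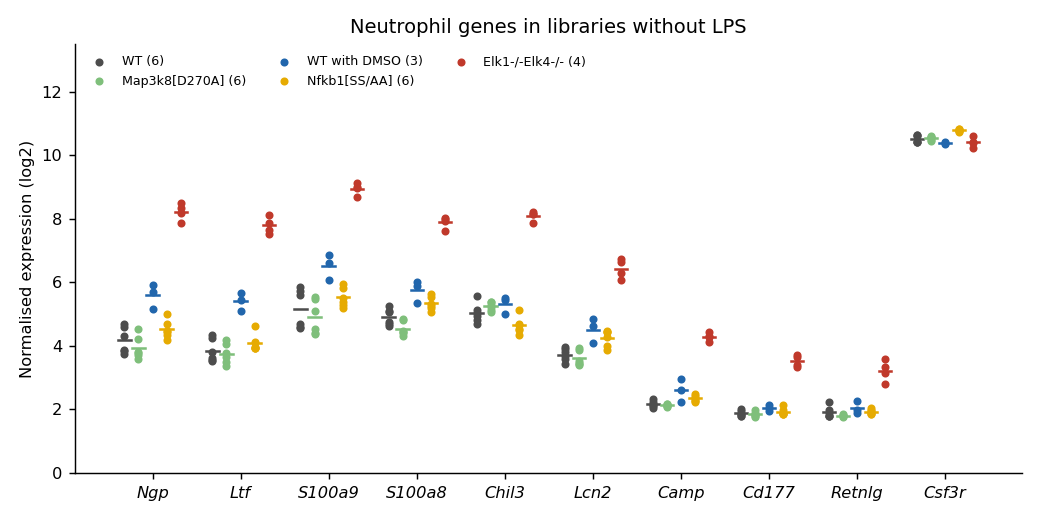
Deposited log2 values of 10 neutrophil genes in 5 resting groups, which are dKO, WT, Map3k8[D270A], Nfkb1[SS/AA] and DMSO-treated WT. Each dot is a library and each bar a group mean, and the dKO libraries are above the other groups for every gene drawn except *Csf3r*.

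Markers of other lineages gave smaller differences. The mast cell gene *Kit* rose by 1.02 (SE 0.29, adjusted p = 0.00272) and was the one tested gene of its 10-gene list. The summed level of the 7 listed genes that had values was 5.37 to 6.48 in WT and 6.52 to 7.43 in dKO. Without WT replicate 9 the *Kit* difference was 0.84, without WT replicate 7 it was 0.99 and without dKO replicate 3 it was 0.86, none of them called. Against WT replicates 4 to 6 alone the *Kit* difference was 0.71 (adjusted p = 0.0728), also not called. The megakaryocyte sum was 10.69 to 11.46 in WT and 11.52 to 11.83 in dKO, with *Pf4* at 0.67. Erythroid genes were not tested because none reached the minimum. The T and NK cell sum was 5.96 to 6.14 in WT and 6.32 to 6.67 in dKO, also without overlap. Its highest member, *Cd5*, was at 5.06 to 5.30 in WT and 5.72 to 5.91 in dKO. *Lck* and *Cd247*, the other members tested, overlapped, and *Cd3e*, *Cd3d* and *Cd3g* were under 0 in both groups. The lists for dendritic cells, B cells, T and NK cells, eosinophils, stroma and endothelium held no called gene. The part of such cells in the differences was not tested. *Ddx3y* was expressed and *Xist* was at -1.36 to -1.21 in all 10 libraries, as in cells of male mice.

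The cells of both genotypes carried the defining markers of macrophages at high levels. None of the 8 tested was called, though their summed level was 18.61 to 18.80 in WT and 18.35 to 18.44 in dKO, without overlap. Among them was *Csf1r*, the receptor for CSF1, at 14.81 to 15.10 in WT and 14.83 to 14.96 in dKO. *Fcgr1* was at 0.50 and *Lyz2* at -0.51. In a wider list of 36 macrophage identity genes 7 fell and none rose (0.463% and 0.774% of all genes), with a median of -0.13. By adjusted p alone 5 of the 36 were higher (27.2% of all genes) and 16 lower (24.6%).

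*Apoe* (chr7:19696244-19701310), which carries lipid out of macrophages, ranged from 15.97 to 16.66 in WT with a median of 16.31 and read 14.48, 14.72, 14.83 and 14.51 in dKO. The *Apoe* difference was -1.70 (SE 0.14, adjusted p = 4.60e-14), and it was -1.49, -1.07 and -1.48 with Map3k8[D270A], DMSO-treated WT and Nfkb1[SS/AA] cells as the control. *Lyz1* (chr10:117287795-117292868), a lysozyme gene, ran from 12.91 to 13.30 in WT (median 13.11) and was 11.45, 11.55, 11.64 and 11.62 in dKO, a difference of -1.55 (SE 0.10, adjusted p = 3.20e-18). *Lyz1* has a close paralog in *Lyz2*, with which reads may have been split, and against the other controls *Lyz1* was at -1.01, -1.56 and -1.88.

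*Itgax* (chr7:128129526-128150657), the integrin subunit CD11c, was spread more widely in WT, from 10.49 to 11.92 with a median of 11.39, and read 9.83, 9.84, 9.77 and 9.94 in dKO, a difference of -1.49 (SE 0.21, adjusted p = 4.73e-08). With the other controls *Itgax* was at -1.89, -1.56 and -1.53. *Fcrls* (chr3:87250736-87263765), an Fc receptor-like gene, lay between 12.76 and 13.01 (median 12.94) in WT and at 11.45, 11.59, 11.49 and 11.31 in dKO. Its difference of -1.44 (SE 0.06, adjusted p = 7.17e-26) was -0.64 against DMSO-treated WT and -0.76 against Nfkb1[SS/AA] cells. *Axl* (-1.26), a receptor for apoptotic cells, *Cx3cr1* (-1.17), the fractalkine receptor, and the complement gene *C1qa* (-1.12) fell as well. Against Nfkb1[SS/AA] cells they were at -0.43, -0.14 and -0.38, under 2-fold, and *C1qa* was at -0.44 against DMSO-treated WT. Against DMSO-treated WT 4 members were called lower (0.317% of all genes), and against Nfkb1[SS/AA] cells 3 were (0.543%).

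The immediate early genes, the best known targets of the ternary complex factors, showed no called member in resting cells. Of 45 tested, 6 were higher and 16 lower by adjusted p alone (27.2% and 24.6% of all genes), and the median difference was -0.09. After LPS, 3, 7 and 5 of the 45 were called lower in dKO at 0.5, 1 and 2 h, when 53, 79 and 114 of all 11884 genes were, with medians of -0.07, -0.44 and -0.43. Resting levels were thus nearer to WT than LPS-induced levels for several of these genes, and the difference of the differences was tested gene by gene.

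*Egr1* came closest to the threshold in resting cells. It ranged from 7.70 to 8.33 in WT with a median of 8.02, and read 6.96, 7.17, 6.98 and 6.96 in dKO, with no overlap (difference -0.97, SE 0.15, adjusted p = 4.27e-07). Against Map3k8[D270A], DMSO-treated WT and Nfkb1[SS/AA] cells the *Egr1* difference was -1.13, -0.80 and -0.63. With LPS it widened to -4.45, -4.04 and -2.55, beyond the resting difference by -3.48 at 0.5 h (adjusted p = 3.22e-18), -3.07 at 1 h (adjusted p = 6.85e-16) and -1.58 at 2 h (adjusted p = 5.13e-07).

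*Egr3* ranged from 6.81 to 7.20 in WT (median 6.96) and read 6.82, 6.47, 6.54 and 6.54 in dKO, a difference of -0.41 (SE 0.15, adjusted p = 0.0209). It was -1.23 against Map3k8[D270A] cells and 0.37 against Nfkb1[SS/AA] cells, so its sign depended on the control. *Nr4a1*, an orphan nuclear receptor, ran from 7.50 to 7.86 in WT (median 7.62) and was 7.54, 7.48, 7.57 and 7.56 in dKO, overlapping, with a difference of -0.12 (adjusted p = 0.51). The *Nr4a1* difference was -0.15 against Map3k8[D270A] cells, 0.32 against DMSO-treated WT and 0.30 against Nfkb1[SS/AA] cells, so its sign also depended on the control.

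The *Fos* and *Jun* families encode the subunits of the AP-1 transcription factor. *Fos* ranged from 10.34 to 10.98 in WT with a median of 10.68, and read 11.10, 10.95, 10.82 and 11.30 in dKO, a difference of 0.36 (SE 0.10, adjusted p = 0.00375). At 0.5 h of LPS the *Fos* difference was -0.82, below the resting one by -1.17 (adjusted p = 6.25e-07). *Fosb* ran from 6.59 to 6.67 in WT (median 6.61) and was 6.59, 6.58, 6.56 and 6.59 in dKO, a difference of -0.04 (adjusted p = 0.866).

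*Fosl1* ranged from 2.94 to 3.86 in WT (median 3.21) and read 3.04, 3.18, 3.21 and 3.09 in dKO, a difference of -0.21 (adjusted p = 0.307). *Fosl2* ran from 10.10 to 10.43 (median 10.10) against 10.21, 10.18, 10.09 and 10.31, a difference of 0.03 (adjusted p = 0.878). The groups overlapped for both. *Fosb* at 0.5 and 1 h, *Fosl1* at 1 h and *Fosl2* at 2 h were lower in dKO after LPS by more than at rest, by -1.35, -1.49, -1.02 and -1.47.

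*Jun* was alike in both groups, with WT values from 11.83 to 12.05 (median 11.93) and dKO values of 12.07, 12.02, 12.10 and 11.85 (difference 0.07, adjusted p = 0.546). *Junb* ran from 11.61 to 11.87 in WT (median 11.81) and was 11.48, 11.43, 11.52 and 11.40 in dKO, a difference of -0.30 (adjusted p = 0.00234). *Jund* ran from 12.09 to 12.34 (median 12.22) against 11.77, 11.66, 11.81 and 11.56, a difference of -0.52 (adjusted p = 3.17e-08). *Junb* and *Jund* were below every WT library in all 4 dKO libraries, but neither reached 2-fold. *Ier5l* at -0.92 was the other member with a difference near 1.

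**Figure D5:**
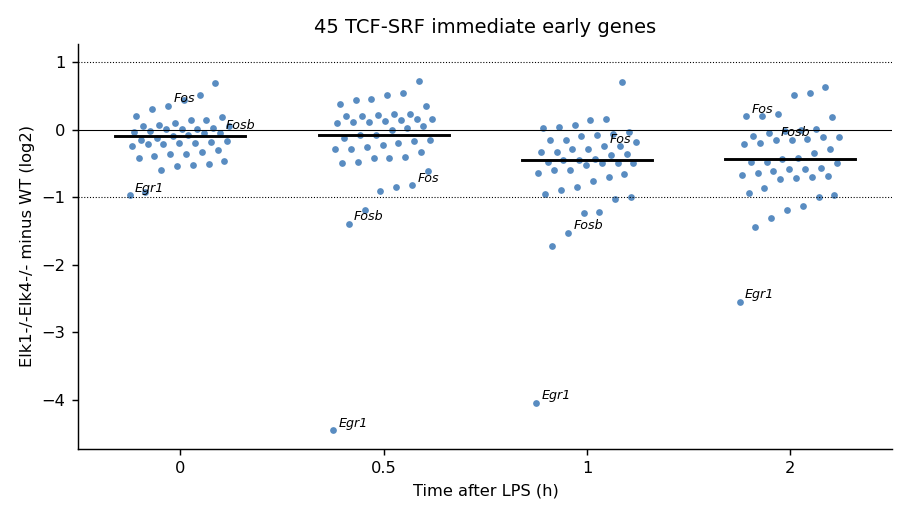
Difference between dKO and WT (log2) for 45 immediate early genes in unstimulated cells and after 0.5, 1 and 2 h of LPS. Each dot is a gene and the bar the median, which moves from -0.09 at rest to -0.44 at 1 h and -0.43 at 2 h.

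The CArG box is shown in the promoters of *Srf* (chr17:46556213-46556332, minus strand) and *Egr2* (chr10:67537396-67537515, plus strand), both listed immediate early genes. The windows are as for the interferon genes, and capitals mark the match.
Srf: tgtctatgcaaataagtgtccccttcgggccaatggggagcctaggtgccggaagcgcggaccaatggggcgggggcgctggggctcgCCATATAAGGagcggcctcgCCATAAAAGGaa
Egr2: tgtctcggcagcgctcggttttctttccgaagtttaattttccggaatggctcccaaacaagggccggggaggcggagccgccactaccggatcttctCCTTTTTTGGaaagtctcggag
The CArG box was in 4 of the 34 immediate early genes with a promoter entry (11.8%), *Egr2*, *Dusp5*, *Zfp36* and *Srf*, and in 141 of the 9526 tested genes with an entry (1.48%). Those 4 had a median resting difference of -0.29 and the remaining ones a median of -0.06. It was in 5 of 38 cytoskeletal genes (13.2%), in none of the 65 genes called higher and in 1 of the 35 called lower. Only the promoter entries were searched, so a gene without a match there may hold a CArG box further away.

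Cytoskeletal genes of SRF also held no called member. Of 42 tested, 12 were higher and 11 lower by adjusted p alone (27.2% and 24.6% of all genes), with a median of -0.03 and a range from -0.68 for the tropomyosin gene *Tpm2* to 0.49 for *Pdlim5*. *Tpm2* was at 0.07 against DMSO-treated WT and at 0.02 against Nfkb1[SS/AA] cells. The 29 tested genes of the MAP kinase pathway, which phosphorylates ELK1 and ELK4, had a median of 0.00 and extremes of -0.50 (*Rasgrp3*) and 0.47 (*Dusp16*).

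Receptors and adaptors for LPS were present in both genotypes. None of 24 was called, 12 were higher and 3 lower by adjusted p alone (27.2% and 24.6% of all genes), and the median was 0.12. *Tlr4* (chr4:66827551-66846581), the LPS receptor, ranged from 11.65 to 11.86 in WT (median 11.77) and was 12.31, 12.34, 12.30 and 12.31 in dKO, a difference of 0.56 (SE 0.07, adjusted p = 1.19e-09) without overlap, and 0.54, 0.51 and 0.65 with the other controls. *Tlr3*, the receptor for double-stranded RNA, differed by 0.70.

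Among 42 cytokine and chemokine genes 1 rose and 1 fell (0.774% and 0.463% of all genes). *Ccl8* (chr11:82115185-82116799), a monocyte chemoattractant, ranged from 4.65 to 5.15 in WT (median 4.85) and read 6.06, 6.54, 6.77 and 5.49 in dKO, a difference of 1.33 (SE 0.25, adjusted p = 1.71e-05). *Cxcl14* (chr13:56288643-56296811), a homeostatic chemokine, ran from 7.84 to 8.44 (median 8.28) against 6.38, 6.43, 6.96 and 6.64, a difference of -1.63 (SE 0.13, adjusted p = 2.78e-15). *Ccl8* was at 0.95 against Nfkb1[SS/AA] cells and *Cxcl14* at -0.91 against DMSO-treated WT, both past the adjusted p but under 2-fold.

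*Il10*, the anti-inflammatory cytokine gene, which lies 0.98 Mb from *Elk4*, was higher at rest and at 0.5 h of LPS, but not at the later times. It ranged from 6.08 to 6.72 in WT with a median of 6.32, and read 7.25, 7.25, 6.96 and 7.06 in dKO, a difference of 0.78 (SE 0.14, adjusted p = 5.88e-06). Against Map3k8[D270A], DMSO-treated WT and Nfkb1[SS/AA] cells the resting difference was 0.88, 0.81 and 0.92. After LPS the *Il10* difference was 0.91 at 0.5 h, 0.01 at 1 h and -0.45 at 2 h, the last below the resting one by -1.23 (adjusted p = 1.43e-05).

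Adhesion genes held 2 that rose and 1, *Itgax*, that fell among 28 (0.774% and 0.463% of all genes). *Vcam1* (chr3:116110020-116129688), the ligand of α4 integrins, ranged from 5.54 to 5.82 in WT (median 5.62) and read 8.09, 7.62, 7.07 and 7.58 in dKO, a difference of 1.93 (SE 0.15, adjusted p = 1.96e-15). It was 1.16 against DMSO-treated WT and 1.27 against Nfkb1[SS/AA] cells. With LPS the *Vcam1* difference was 1.98, 0.88 and 0.25 at 0.5, 1 and 2 h, and the change from rest was -1.06 at 1 h (adjusted p = 0.00173) and -1.68 at 2 h (adjusted p = 1.12e-07). *Itgb7*, the integrin β7 subunit, rose by 1.04 against WT but was at 0.05 and -0.03 against DMSO-treated WT and Nfkb1[SS/AA] cells. Without WT replicate 4 the *Itgb7* difference was 0.99 and without dKO replicate 3 it was 0.98, just under the threshold.

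Proteases and iron uptake added a few more. Of 19 lysosomal proteases *Ctse* and *Ctsk* rose, where 0.774% of all genes did. *Ctsk* (chr3:95499210-95509387), the collagen-degrading cathepsin K of osteoclasts, ranged from 6.24 to 6.59 in WT (median 6.54) and was 7.70, 7.82, 8.39 and 7.77 in dKO (difference 1.43, SE 0.12, adjusted p = 4.71e-14), but 0.79 against DMSO-treated WT and 0.56 against Nfkb1[SS/AA] cells. The fusion gene *Dcstamp* (chr15:39745930-39760938), also used by osteoclasts, fell, with WT values of 9.31 to 10.55 (median 9.99) and dKO values of 8.46, 8.49, 8.29 and 8.75 (difference -1.43, SE 0.18, adjusted p = 3.74e-09). *Tfrc* (chr16:32608896-32632794), the transferrin receptor, ranged from 11.23 to 11.92 in WT (median 11.41) and was 12.55, 12.81, 12.78 and 12.37 in dKO, a rise of 1.12 (SE 0.17, adjusted p = 4.24e-07). *Tfrc* was at 0.85 against WT replicates 7 to 9 alone and at 0.96 against Map3k8[D270A] cells.

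Cholesterol and lipid genes changed direction with the control. Of 35, 17 were higher and 6 lower than in WT by adjusted p alone (27.2% and 24.6% of all genes) with a median of 0.22, but against DMSO-treated WT none was higher and 27 were lower (19.7% and 18.4% of all genes, list median -0.43), and against Nfkb1[SS/AA] cells 2 were higher and 28 lower (27.1% and 26.3% of all genes, list median -0.55). No cell cycle gene of 48 was called, with 6 higher and 1 lower by adjusted p alone, among them *Cenpe* at 0.78. That count depended on the control. It was 17 higher and 0 lower against WT replicates 4 to 6 (25.9% and 24.2% of all genes), 16 and 2 against Map3k8[D270A] (26.6% and 23.9%) and 13 and 1 against Nfkb1[SS/AA] cells (27.1% and 26.3%). It was 0 and 5 against WT replicates 7 to 9 (21.8% and 19.9% of all genes), and 2 and 11 against DMSO-treated WT (19.7% and 18.4%). No antigen presentation gene of 19 was called. *H2-Ab1* was at -0.43 (adjusted p = 0.331), and at -1.14 against WT replicates 4 to 6 alone.

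The remaining large rises were in genes of varied function. *Plac8* (chr5:100551589-100572253), a cysteine-rich protein gene of myeloid cells, ranged from 2.82 to 3.38 in WT (median 3.13) and was 5.38, 5.38, 5.47 and 4.60 in dKO, a difference of 2.10 (SE 0.16, adjusted p = 2.78e-15). *Akap2* (chr4:57434475-57896984), a kinase anchoring protein gene, ran from 6.07 to 6.44 (median 6.22) against 8.22, 8.40, 8.50 and 7.84, a difference of 1.98 (SE 0.13, adjusted p = 3.96e-18). *Cpne8* (chr15:90487481-90679388), a copine gene, ran from 3.09 to 3.50 (median 3.14) against 4.81, 4.86, 5.48 and 5.51, a difference of 1.94 (SE 0.19, adjusted p = 6.56e-12). For these 3 genes no library of one genotype reached the other. With the other controls *Plac8* was at 2.01, 2.31 and 2.18, *Akap2* at 1.5, 1.79 and 1.38, and *Cpne8* at 1.91, 2.02 and 1.23. *Csprs* lay between 3.75 and 4.58 (median 4.28) in WT and at 6.19, 6.08, 6.76 and 5.70 in dKO, a difference of 1.97 (SE 0.25, adjusted p = 6.97e-09), and 2.21, 2.38 and 1.70 with the other controls.

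The remaining large falls were also in genes of varied function. *Amd2* (chr10:35708691-35711891), a gene of polyamine synthesis, ranged from 6.16 to 9.05 in WT with a median of 8.08, and read 5.43, 5.82, 5.86 and 5.44 in dKO. Its difference of -2.22 had an SE of 0.79 (adjusted p = 0.0163). It was -1.98 against WT replicates 7 to 9 alone (adjusted p = 0.086) and -1.30 against Map3k8[D270A] cells (adjusted p = 0.172), not called in either. Against DMSO-treated WT and Nfkb1[SS/AA] cells *Amd2* was at -4.14 and -3.22. *Amd2* is a near copy of *Amd1*, and reads may have been split between them. The ribosomal pseudogene *Rps15a-ps6*, at -2.05, is uncertain for the same reason.

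*Ppp1r1a* (chr15:103530279-103538027), an inhibitor subunit of protein phosphatase 1, ran from 5.60 to 6.90 in WT (median 6.22) and was 4.23, 4.51, 4.47 and 4.27 in dKO, a difference of -1.82 (SE 0.21, adjusted p = 4.77e-10), and -2.26, -0.91 and -0.71 with the other controls. *Plxdc2* (chr2:16355740-16761132), a membrane protein gene, ran from 8.83 to 9.95 (median 9.68) against 8.11, 8.03, 7.59 and 7.99, a difference of -1.67 (SE 0.27, adjusted p = 7.24e-07) that was -0.26 against Nfkb1[SS/AA] cells. *Prex2* (chr1:10993273-11303683), an exchange factor for Rac, ran from 4.83 to 5.30 (median 5.09) against 3.31, 3.62, 3.44 and 3.32, a difference of -1.66 (SE 0.35, adjusted p = 7.48e-05). Against Map3k8[D270A] cells *Prex2* was at 0.17, and those cells differed from WT in the gene by -1.83. It was at -0.47 against DMSO-treated WT (adjusted p = 0.26) and at -1.53 against Nfkb1[SS/AA] cells.

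*Lrrc32* (chr7:98489305-98501831), whose product GARP holds latent TGF-β, ranged from 7.20 to 8.62 in WT (median 8.04) and read 6.33, 6.42, 6.41 and 6.13 in dKO, a difference of -1.63 (SE 0.22, adjusted p = 1.48e-08). *Mmp14* (chr14:54431598-54442456), a membrane-bound collagenase, ran from 7.73 to 9.02 (median 8.58) against 6.77, 6.90, 6.82 and 6.80, a difference of -1.59 (SE 0.28, adjusted p = 3.61e-06). With the other controls *Lrrc32* was at -2.07, -1.78 and -0.92 and *Mmp14* at -1.29, -1.44 and -2.23. For each of these genes the spread within WT was wider than that within dKO, and the groups stayed apart.

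Most of the resting differences were still present in the LPS libraries. These come from the same experiments and carry the same replicate numbers as the resting ones, so genotype and experiment coincide there too and the values are no independent support. Of the 92 genes called higher at rest, 61 were called higher at each of 0.5, 1 and 2 h, when 86, 103 and 134 of all 11884 genes were. The median difference of the 92 went from 1.33 at rest to 1.24, 1.33 and 1.27. Of the 55 called lower, 28 were called lower at each time, when 53, 79 and 114 of all genes were. The median of the 55 was -1.26 at rest and -1.23, -1.25 and -1.11 after LPS. A change of the difference between rest and LPS of at least 2-fold was called in 4, 21 and 72 of all 11884 genes. It was called in 0, 1 and 5 of the 92 genes and in 0, 0 and 1 of the 55. *Lcn2* was one of the first group, with a difference smaller by -1.07 at 2 h (adjusted p = 9.85e-04), and *Lrrc32* was the one of the second, with a larger fall at 2 h by -1.09 (adjusted p = 0.0134).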

How the data were processed

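RNA was extracted from BMDM cultures, made into TruSeq RNA libraries and sequenced as single-end reads. The authors aligned and quantified the reads with STAR and RSEM on mm10 and normalised with DESeq2 (versions 2.5.1b, 1.2.29 and 1.10.1 in the submitters' processing notes). They deposited 1 table of 18098 genes in 119 libraries. Its deposited values are normalised and on a log2 scale (-2.4 to 19.81), with the transformation not named. If the authors shrank low values towards the mean, differences of low genes are understated. The study's methods state a typical sequencing yield, but counts are not given. The depth of each library is therefore unknown, and no interval for counting error is given.

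One value above 25 was set missing. Every difference was fitted with limma 3.58.1 in R 4.3.3 on 62 libraries (WT, Map3k8[D270A] and dKO at all times), over the 11884 genes that reached 10 on the linear scale in 4 or more of them. The comparisons with DMSO-treated WT and Nfkb1[SS/AA] used all 119 libraries and the 11971 genes that reached 10 in 3. P-values were adjusted by the Benjamini-Hochberg method over all genes tested, within each comparison. Interactions are the difference after LPS minus that at rest.

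The members and the gene lists were chosen with earlier results of these data known. Genes were named by rule: *Elk1*, *Elk4*, *Elk3* and *Srf*, the 12 called genes with the largest non-overlapping difference each way, the called members of each list (up to 4 each way, or the 2 most different members of a list with none), called genes within 5 Mb of *Elk4* or *Elk1*, and 12 genes the study follows. Neighbours, list members and values outside the rule were chosen after their values were seen. Positions and promoters are RefSeq, GRCm38.p6, the assembly of mm10, matched by symbol for 17293 genes and by synonym for 731. The fit was tested on simulated data with the spread pooled within the groups of the 62 libraries and no difference between experiments. It called 99% of genes changed 1.5 log2 units and 100% of those changed 2, and 1 unchanged gene. Such data cannot show how many calls come from the experiment. Alternatives covered thresholds, filters, scaling, control groups and each library left out.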

Additional observations from a re-analysis of the deposited data

Results flagged for a closer look

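The difference between dKO and WT changed with LPS, by an interaction test across all genes (limma, Benjamini-Hochberg adjusted), for 11 of the named genes. *Egr1* moved furthest, by -3.48, -3.07 and -1.58 at 0.5, 1 and 2 h. *Egr3* moved by -1.31 at 1 h (adjusted p = 5.61e-05) and *Fos* by -1.17 at 0.5 h. *Fosb* moved by -1.35 at 0.5 h (adjusted p = 3.89e-04) and by -1.49 at 1 h (adjusted p = 1.45e-05), *Fosl1* by -1.02 at 1 h (adjusted p = 0.0102) and *Fosl2* by -1.47 at 2 h (adjusted p = 4.09e-08). *Ifnb1* moved upwards, by 1.51 at 1 h. *Il10* moved by -1.23, *Lcn2* by -1.07 and *Lrrc32* by -1.09 at 2 h, and *Vcam1* by -1.06 at 1 h and -1.68 at 2 h. The resting *Lcn2* difference was therefore larger than that at 2 h, and the resting *Vcam1* difference larger than those at 1 and 2 h. At rest the differences of the *Fos* and *Egr* genes were smaller than at the times given, or of the other sign.

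In 8 of 162 groups of values, 1 library stood apart from the others by Dixon's test, and chance alone marks about 1 in 20. *Egr1* in dKO replicate 2 was at 7.17, above the other 3 dKO libraries and still below WT. *Plac8* in dKO replicate 4 was low at 4.60, *Pdlim5* in dKO replicate 4 high at 12.48, *Cd247* in dKO replicate 2 high at 4.45 and *Treml1* in dKO replicate 2 low at 4.22. Among WT libraries, *Ctsk* in replicate 8 was low at 6.24, *Fosl2* in replicate 9 high at 10.43 and *Plxdc2* in replicate 4 low at 8.83. No library accounts for more than 3 of the 8.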

How the results depend on the processing

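The 147 called genes (92 higher, 55 lower) became 402 (249 and 153) at a difference of 0.693, the size of a 2-fold change if the scale were a natural logarithm, 599 (366 and 233) at 1.5-fold and 6154 (3228 and 2926) by adjusted p alone. With those 3 thresholds the interferon-stimulated genes called higher were 33, 40 and 49 in place of 10, and the immediate early genes called changed were 2, 4 and 22 in place of 0. The macrophage identity genes called lower were 11 at 1.5-fold and 16 by adjusted p alone, and the cytoskeletal genes called changed 1 and 23. Against DMSO-treated WT, 1 interferon gene was called, 4 passed the adjusted p alone, and 4 macrophage identity genes were lower. Against Nfkb1[SS/AA] these were 3, 31 and 3, with 1 immediate early gene called. That count was 2 against Map3k8[D270A] and 1 against WT replicates 7 to 9 alone. The cause of these changes was not tested.

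The genes that changed sign with the control include the following. *Nr4a1* was at 0.32 (DMSO-treated WT) and 0.30 (Nfkb1[SS/AA]), and *Fosl2* at -0.14 (Map3k8[D270A]). *Fosl1* was at 0.13 and *Ifit3* at -0.06 (both DMSO-treated WT). *Cd22* was at 0.07 (DMSO-treated WT) and 0.10 (Nfkb1[SS/AA]), *Tpm2* at 0.07 and 0.02, *Egr3* at 0.37 and *Itgb7* at -0.03 (both Nfkb1[SS/AA]), *Prex2* at 0.17 (Map3k8[D270A]), and *Elk3* at 0.11, *Fcgr1* at -0.07, *Kdr* at -0.51 and *Prc1* at -0.11 (all DMSO-treated WT). All 81 named genes kept their call without a filter, with an intensity trend, with robust moderation and with library medians subtracted. They also kept it with other libraries added to or left out of the fit. No gene past the adjusted p in either fit changed sign there, and other changes of sign were not counted. With quantile normalisation 79 kept their call, while *Chil1* (0.94) and *Kit* (1.00) were no longer called.

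With each library left out in turn the called genes numbered 141 to 171, of which 48 to 66 were lower. The interferon genes called numbered 8 to 12, with 48 to 49 past the adjusted p alone, the neutrophil genes 9 to 9, the macrophage identity genes 6 to 7, the immediate early genes 0 to 1 and the cytoskeletal genes 0 to 0. With all libraries kept, the neutrophil count moved with the filter on low values. It was 10 without a filter, 7 with the filter on the 10 unstimulated libraries and 6 with a linear minimum of 50. All called genes numbered 129 with that last filter. The comparisons with Map3k8[D270A], DMSO-treated WT and Nfkb1[SS/AA] gave 154 to 190, 122 to 144 and 181 to 196 genes, and the interactions 4 to 4, 18 to 25 and 66 to 90 at 0.5, 1 and 2 h, chosen after seeing the data. *Kit* and *Itgb7* were the named genes that lost their call.

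No paired analysis was possible because the 6 WT libraries are numbered 4 to 9 and the 4 dKO libraries 1 to 4, and the groups share 1 number. With a replicate block within genotype the interactions called 4, 21 and 74 genes in place of 4, 21 and 72. Against Map3k8[D270A] replicates 1 to 4 the count was 191 with and without the replicate block, and same-numbered libraries of these groups had correlated deviations of only -0.0847 to 0.123, so the numbers do not pair them. Without counts, the depth behind the lowest genes is unknown.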

Other observations

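Genes outside the lists, named after their values were seen, also rose in dKO. *Ly6c2* (1.70) and *Ly6a* (1.64) encode Ly6 surface proteins, the first of them a marker of inflammatory monocytes. *Ly6c2* was at 1.41 and *Ly6a* at 2.02 against DMSO-treated WT, and at 1.16 and 2.59 against Nfkb1[SS/AA] cells. The Schlafen genes *Slfn1* (1.57) and *Slfn4* (1.55) were at 1.31 and 1.99 against DMSO-treated WT. *Fcgr4*, an activating Fc receptor, rose by 1.35 and was at 0.86 there. The guanylate-binding and related genes *Gbp6* (1.34) and *Tgtp2* (1.39) were at 0.90 and 0.77 there, while *Ifit3b* went from 1.28 against WT to -0.25. *Wdfy1* on chromosome 1 and *Ppm1e* moved little with the control, at 1.74, 1.75, 1.71 and 1.70 and at 1.55, 1.53, 1.54 and 1.53 against WT, Map3k8[D270A], DMSO-treated WT and Nfkb1[SS/AA]. Of 690 tested genes on chromosome 1, *Elk4* included, 18 were called (2.61%, against 1.24% of all genes), and chromosomes 15, 18 and 14 followed at 2.22%, 2.09% and 2.06%.

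Among genes that fell, the metallothioneins *Mt2* (-1.38) and *Mt1* (-1.03), which bind zinc and copper, were at -0.56 and -0.65 against DMSO-treated WT. The adjacent membrane protein genes *Tmem176b* (-1.38) and *Tmem176a* (-1.34) were at -1.12 and -0.90 there. The transcription factor gene *Runx3* was at -1.23 against WT and at -1.33, -1.31 and -1.31 against Map3k8[D270A], DMSO-treated WT and Nfkb1[SS/AA]. *Lrrc17* was lower in dKO only against the untreated WT libraries, at -1.17, with 0.34, 0.21 and 0.10 against the other groups. *AY074887* was at -1.37 against WT and -0.01 against Map3k8[D270A], with -1.43 against DMSO-treated WT and -1.28 against Nfkb1[SS/AA]. *Gm14431* and *Gm8898* carry identical values (-1.26) and count as 2 of the 55 genes called lower.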
